A study of Saccharomyces cerevisiae with 6 samples.

Results

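The genes of the DNA replication machinery of budding yeast, Saccharomyces cerevisiae, were described in cells making an active or a kinase-dead mammalian phosphoinositide 3-kinase. They were chosen by name as 37 genes of origin recognition, helicase loading, DNA polymerases and primase, the sliding clamp and its loader, the single-strand binding complex RPA and ribonucleotide reductase. All 37 had a probe set, 1 for each, among the 5449 genes named on the array, and all 37 passed the filter that left 5350 genes for testing. The PI3K group carried p110α-CAAX, the catalytic subunit encoded by PIK3CA with a motif that directs proteins to membranes, and the KD group carried the same construct with the kinase-dead substitution K802R. Both groups were transformants of strain BY4741, pregrown in raffinose medium, given 2% galactose for 4 h at 30°C to drive the construct from a galactose-inducible promoter, with 3 biological replicates and 3 arrays in each. The labels do not say whether the replicates came from separate transformants. Values are log2 signal per probe set, and a difference is PI3K minus KD on that scale.

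Replication starts at origins bound by the origin recognition complex, which with Cdc6 loads the MCM helicase during G1. Cdc45 turns the helicase active, polymerase alpha with primase lays down primers, and polymerases epsilon and delta extend them behind the clamp PCNA. Much of this machinery is transcribed in waves of the yeast cell cycle. The transcription factor MBF, made of Mbp1 and Swi6, drives a wave at the G1/S boundary that includes polymerase, RPA and RNR1 genes. The MCM genes and CDC6 peak earlier, between mitosis and G1, and other genes, such as those of the origin recognition complex, are made at a steadier level. RNR2, RNR3 and RNR4 are induced by DNA damage through loss of the repressor Rfx1.

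URA3 and MET17, which BY4741 lacks, lay between 3.11 and 3.51 and between 3.57 and 4.03 on all arrays, near the lowest value of the table, 2.49. HIS3 and LEU2, also mutated in this strain, gave signal on all arrays and differed by 0.09 and -0.03 between PI3K and KD. The galactose genes GAL1, GAL7 and GAL10 differed between PI3K and KD by -0.02, 0.17 and -0.02 at levels near the highest of the arrays. The log2 of the summed signal of 7 genes that mark mating type a was 14.09 to 14.14 in PI3K and 14.18 to 14.29 in KD. That of 4 genes of mating type alpha was 9.23 to 9.43 in PI3K and 9.02 to 9.21 in KD. Within the alpha list STE3 stood at 0.85 (adjusted p = 0.145) and MF(ALPHA)1 at -0.40, and the part of these genes in the results was not tested. The arrays also differed apart from their groups. With group means removed, the first principal component over the 5313 tested genes outside the replication set held 70.4% of the variance and set PI3K 1, PI3K 3 and KD 3 (side A) against PI3K 2, KD 1 and KD 2 (side B). No batch is named in the labels. The sides were read from the values, and differences inside each side are given beside the results. Each side rests on 1 unreplicated array of a group, KD 3 in side A and PI3K 2 in side B.

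Most replication genes had lower values with the active kinase, by small amounts, and none passed the test over all genes. Of the 37 genes, 27 had a negative difference, or 73.0%, where 50.3% of all genes tested did. The median difference was -0.16 against -0.00180 over all genes. Inside the sides, 24 of the 37 were lower in side A, 31 in side B and 20 in both. The median of the 37 was -0.12 in side A and -0.22 in side B, against 0.05 and -0.02 over all genes. In limma with Benjamini-Hochberg adjustment over 5350 genes, 0 of the 37 passed 0.05, while 0.243% of all genes did, 0.0187% as lower. The smallest adjusted p of a replication gene was 0.238. With array weights, whose estimate did not converge, 27 of the 37 and 52.5% of all genes passed, and 1 of the 37 passed with the side as a covariate. At an unadjusted p under 0.05, 8 of the 37, or 21.6%, were lower and 0 higher, against 6.58% of all genes lower and 7.94% higher. The count of 8 was 2 without PI3K 3 (3.83% of all genes lower), 2 without KD 2 (3.44%), 3 without PI3K 1 (3.01%), 5 without KD 1 (3.87%), 6 without PI3K 2 (6.64%) and 15 without KD 3 (13.0%). The PI3K values all lay below the KD values for 11 genes, or 29.7%, and above them for 0, where 10.5% and 10.2% of all genes did so. In RNA from whole cultures, fewer cells passing through a stage and less transcript in each cell cannot be told apart.

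**Figure D1:**
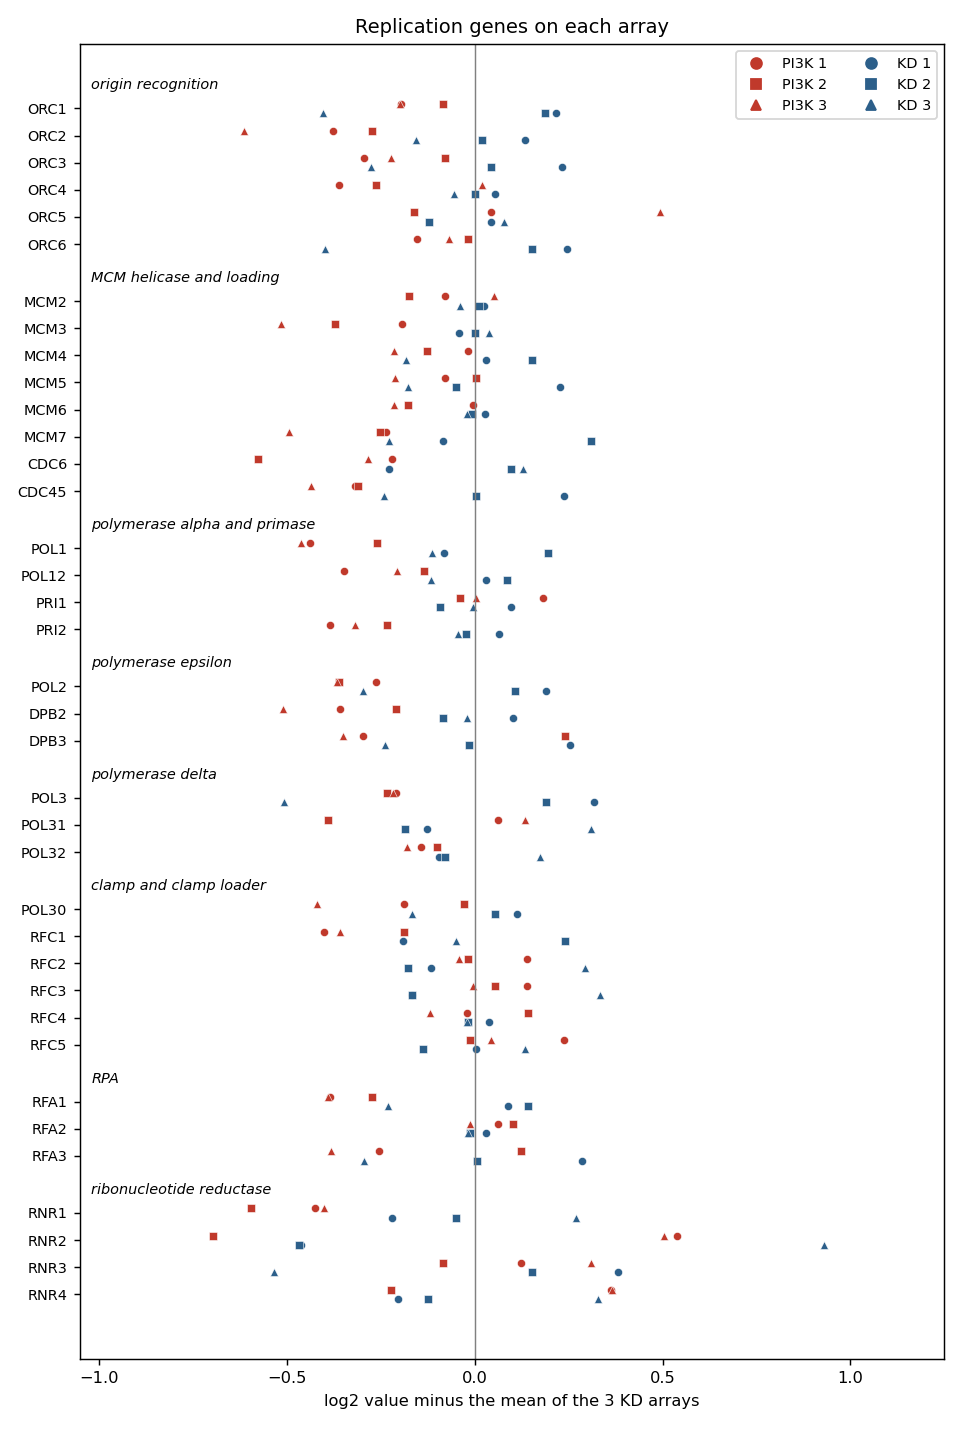
Log2 value of each of the 37 genes minus its mean on the 3 KD arrays (x axis), by complex (rows). Red points are PI3K arrays, drawn above the blue KD arrays of the same gene, and the shape gives the replicate. PI3K points lie left of all KD points for 11 genes and right of them for 0.

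Of the 6 genes of the origin recognition complex, which marks replication origins, 5 had a negative difference. ORC2 had log2 values of 9.12, 9.22 and 8.88 in PI3K, against 9.63, 9.51 and 9.34 in KD. All 3 PI3K arrays were below all 3 KD arrays, and the means were 9.07 ± 0.17 and 9.49 ± 0.15 (SD, n = 3 each), a difference of -0.42 (SE 0.14, limma adjusted p = 0.246). The difference for ORC2 was -0.34 in side A and -0.35 in side B. The other subunits overlapped between groups: ORC1 (-0.16), ORC3 (-0.20), ORC4 (-0.20), ORC6 (-0.08) and ORC5 (0.13). KD 3 was the lowest KD array for every subunit gene except ORC5. The differences of ORC1, ORC3, ORC5 and ORC6 had opposite signs in the sides. For ORC6 the difference was 0.29 in side A and -0.22 in side B, and for ORC5 it was 0.19 and -0.12.

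All 8 genes of helicase loading and activation had a negative difference. MCM3, a subunit of the helicase ring, stood at 9.38, 9.21 and 9.06 in PI3K and at 9.54, 9.58 and 9.62 in KD. The KD arrays lay within 0.04 (SD) of 9.58 and all PI3K arrays were below them, with a difference of -0.36 (SE 0.12, adjusted p = 0.253), or -0.39 in side A and -0.35 in side B. MCM7 had a difference of -0.33 and its groups did not overlap, but 2 of its PI3K values were within 0.03 of KD 3. The remaining ring subunits had smaller differences with overlapping groups: MCM6 at -0.13, MCM4 at -0.12, MCM5 at -0.10 and MCM2 at -0.07. MCM4, MCM5 and MCM2 had opposite signs in the sides, at 0.07, 0.03 and 0.03 in side A and -0.22, -0.09 and -0.19 in side B. The subunits enter the ring in equal number, and their intervals overlap: the 95% interval was -0.64 to -0.07 for MCM3 and -0.33 to 0.19 for MCM2.

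CDC6, the loading factor that joins the origin recognition complex in G1, had log2 values of 7.63, 7.27 and 7.56 in PI3K, against 7.62, 7.94 and 7.97 in KD. PI3K 1 and KD 1 were nearly equal, so the groups overlapped at a difference of -0.36 (SE 0.15, adjusted p = 0.348). CDC45, which turns the loaded ring into a moving helicase, stood at 8.32, 8.33 and 8.21 in PI3K and at 8.88, 8.65 and 8.40 in KD. Its groups did not overlap (difference -0.35, SE 0.15, adjusted p = 0.330), though KD 3 came within 0.07 of PI3K 2, and the difference was -0.14 in side A and -0.43 in side B.

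Among the genes of polymerase alpha and primase, which make the primers of each new strand, 3 of 4 were lower and apart from KD on every PI3K array. Of all genes tested, 10.5% were lower and apart. POL1, the catalytic subunit, had values of 10.32, 10.50 and 10.30 in PI3K, against 10.68, 10.96 and 10.65 in KD. The means were 10.37 ± 0.11 and 10.76 ± 0.17 (SD, n = 3 each), a difference of -0.39 (SE 0.13, adjusted p = 0.254). PRI2, the large primase subunit, had values of 9.75, 9.90 and 9.82 in PI3K and 10.20, 10.11 and 10.09 in KD. Its difference was -0.31 (SE 0.10, adjusted p = 0.254), and arrays of a group lay close together. POL1 and PRI2 had nearly the same difference within both sides, at -0.34 and -0.32 for POL1 and -0.31 and -0.25 for PRI2. POL12, the accessory subunit, was at -0.23, while PRI1, the catalytic primase subunit, stood at 0.05 with overlapping groups (95% interval -0.23 to 0.33).

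The polymerase epsilon genes, which encode the leading-strand enzyme, all had negative differences. DPB2, the essential second subunit, stood at 8.72, 8.87 and 8.57 in PI3K and at 9.18, 8.99 and 9.06 in KD, with no overlap (difference -0.36, SE 0.12, adjusted p = 0.259). POL2, the catalytic subunit, had a difference of -0.33 that lay in side B (-0.51) and not in side A (-0.02), where KD 3 was about as low as the PI3K arrays. DPB3, a small histone-fold subunit, was at -0.14 with wide overlap, and at -0.08 in side A and 0.12 in side B.

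The polymerase delta genes, which encode the enzyme that completes the lagging strand, all had negative differences, and 0 of 3 had an unadjusted p under 0.05. POL32 had values of 9.50, 9.55 and 9.46 in PI3K, against 9.55, 9.57 and 9.82 in KD. PI3K 2 and KD 1 were about equal and the gap between the groups rested on KD 3 (difference -0.14, SE 0.12, adjusted p = 0.664). POL3, the catalytic subunit, was almost constant over the PI3K arrays at 8.84 ± 0.01 but varied over KD at 9.06 ± 0.44 (SD, n = 3 each). Its difference was -0.22 with a 95% interval of -0.73 to 0.29, and was 0.29 in side A and -0.49 in side B. POL31 stood at -0.06 with overlapping groups, but at -0.21 in side A and -0.23 in side B. Its side A values exceeded those of side B by 0.49 in PI3K and by 0.47 in KD.

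The clamp and clamp loader genes did not lean one way, with 2 of 6 lower and a median difference of 0.01. The median was -0.19 in side A and 0.09 in side B. POL30, which encodes the clamp PCNA, had values of 12.26, 12.42 and 12.02 in PI3K, against 12.56, 12.50 and 12.28 in KD. PI3K 2 lay above KD 3, so the groups overlapped (difference -0.21, SE 0.14, adjusted p = 0.586). RFC1, the large subunit of the loader, stood at 9.36, 9.57 and 9.40 in PI3K and at 9.57, 10.00 and 9.71 in KD. Its groups touched at PI3K 2 and KD 1, with a difference of -0.32 (SE 0.14, adjusted p = 0.387). The 4 small subunits of the loader lay between 0.00 and 0.09: RFC2 at 0.03, RFC3 at 0.06, RFC4 at 0.000553 and RFC5 at 0.09. Their 95% intervals reached no further than -0.34 for RFC2 on the low side and 0.45 for RFC3 on the high side. RFC2 and RFC3 had opposite signs in the array sides, at -0.25 and -0.27 in side A and 0.13 and 0.22 in side B. RFC5 and POL30 are neighbours in the genome, as are POL2 and ORC5, and in each pair the differences had opposite signs. These signs were not resolved. The 95% interval was -0.21 to 0.39 for RFC5 and -0.55 to 0.13 for POL30. It was -0.69 to 0.03 for POL2 and -0.30 to 0.56 for ORC5. In side B both POL2 (-0.51) and ORC5 (-0.12) were negative.

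The RPA genes, whose products coat single-stranded DNA, differed among themselves. RFA1, the large subunit, had values of 9.88, 9.99 and 9.87 in PI3K, against 10.35, 10.41 and 10.03 in KD. All PI3K arrays were below KD, with KD 3 just above them (difference -0.35, SE 0.13, adjusted p = 0.304; -0.16 in side A and -0.39 in side B). RFA2, the middle subunit, was among the steadiest genes of the array, with a residual SD of 0.05, and stood at 0.05 (95% interval -0.19 to 0.29). RFA3, the small subunit, varied with the sides and had a difference of -0.17, or -0.03 in side A and -0.02 in side B.

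Ribonucleotide reductase makes the deoxynucleotides for replication. Its large subunit is encoded by RNR1 and, after damage, RNR3, and its small subunit by RNR2 and RNR4. RNR1 had the largest negative difference of the 37 genes. Its values were 11.23, 11.06 and 11.26 in PI3K, against 11.44, 11.61 and 11.93 in KD. Every PI3K array was below every KD array, with means of 11.18 ± 0.11 and 11.66 ± 0.25 (SD, n = 3 each). The difference of -0.47 is 1.39-fold lower in PI3K (SE 0.15, adjusted p = 0.238), and it was -0.68 in side A and -0.46 in side B. RNR1 was the replication gene that passed with the array side as a covariate (difference -0.57, adjusted p = 0.0412), a setting in which 3.46% of all genes passed. The sides were found from other genes on the same arrays, so that p is too small by an unknown amount.

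The genes of the small subunit followed the sides rather than the groups. RNR2 had values of 12.12, 10.89 and 12.09 in PI3K and 11.12, 11.12 and 12.51 in KD. It was high on PI3K 1, PI3K 3 and KD 3 and low on the other arrays, so that side A exceeded side B by 1.22 in PI3K and by 1.39 in KD, while the groups differed by 0.12 (95% interval -1.01 to 1.24, adjusted p = 0.949). Inside the sides RNR2 had the opposite sign, at -0.41 in side A and -0.23 in side B, and its difference was -0.32 (adjusted p = 0.0956) in the fit with the side as a covariate. Side A holds 2 of the 3 PI3K arrays and 1 of the 3 KD arrays. Its residual SD of 0.76 was above that of 99.1% of genes tested, the percentile counting RNR2 itself. RNR4 showed the same order less strongly, at 12.61, 12.02 and 12.61 in PI3K and 12.04, 12.12 and 12.57 in KD (difference 0.17, adjusted p = 0.804). RNR3, the damage-induced large subunit, had values of 6.97, 6.76 and 7.16 in PI3K and 7.23, 6.999 and 6.31 in KD. Here KD 3 was the lowest array, the groups overlapped and the difference was 0.12 (SE 0.25, adjusted p = 0.892), at 0.75 in side A and -0.35 in side B.

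**Figure D2:**
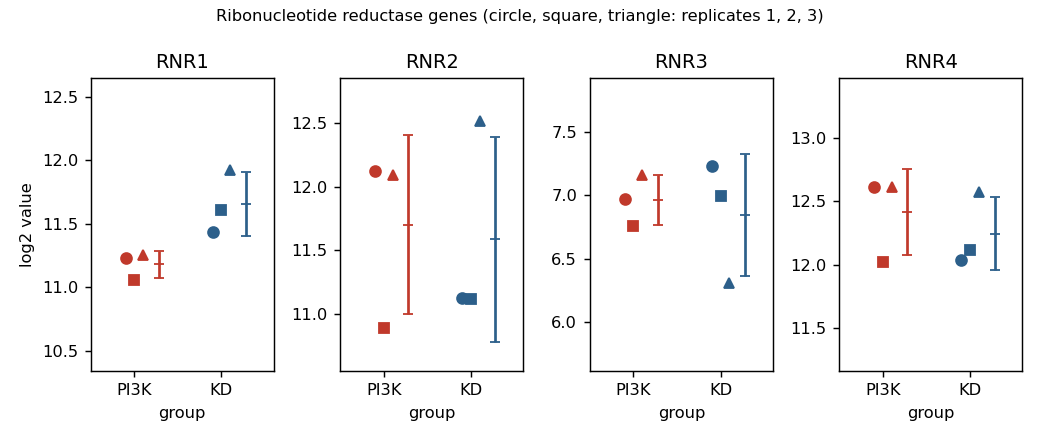
Log2 values (y axis, each panel spanning the same range) of the 4 ribonucleotide reductase genes in PI3K (red) and KD (blue). Points are arrays, and the bars give the mean and SD of 3. RNR1 is lower on all PI3K arrays, while RNR2 and RNR4 are high on PI3K 1, PI3K 3 and KD 3.

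The genes were then set out by the wave of the cell cycle in which they are known to be transcribed. The G1/S genes, those with MBF control, had a median difference of -0.27 over 14 genes, with 12 lower. These were POL1, POL12, PRI1, PRI2, POL2, DPB2, DPB3, POL3, POL30, the RPA genes, RNR1 and CDC45. The 7 M/G1 genes, the MCM genes and CDC6, had a median of -0.13, with 7 lower, or 4 in side A and 7 in side B. The 13 genes with no assigned wave had a median of -0.08, with 8 lower, and RNR2, RNR3 and RNR4 one of 0.12, with 0 lower. That sign did not hold inside the sides: the median of these reductase genes was 0.04 in side A, with 1 of 3 lower, and -0.23 in side B, with 3 of 3 lower. Of the 8 genes lower at an unadjusted p under 0.05, 6 were G1/S genes, and MCM3 and ORC2 were the others. The class medians were not tested, since the classes were assigned with earlier results of these data known.

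On single arrays the median G1/S gene was -0.31, -0.22 and -0.37 relative to its KD mean on PI3K 1, 2 and 3, and 0.10, 0.00 and -0.14 on KD 1, 2 and 3. The PI3K arrays were all below the KD arrays in this median. For the genes with no assigned wave the medians were -0.14, -0.08 and -0.07 on the PI3K arrays and 0.04, -0.02 and -0.02 on the KD arrays, which also did not overlap but lay closer. The difference between the medians of G1/S genes and genes with no assigned wave was -0.19, beside an SD of 0.14 between single arrays of a group. It shrank to -0.07 when RFC4, RFC5, POL31, POL32 and ORC1, whose assignment is less certain, were counted as G1/S genes. Within single sides the class medians were close to each other, at -0.14 for G1/S and -0.12 for no assigned wave in side A, and -0.24 and -0.21 in side B. In the fit with the side as a covariate they were further apart, at -0.22 and -0.06, a difference of -0.16. Lower in both sides were 10 of the 14 G1/S genes and 5 of the 13 genes with no assigned wave. The difference between the G1/S genes and the genes with no assigned wave was not tested, and these values do not establish it.

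**Figure D3:**
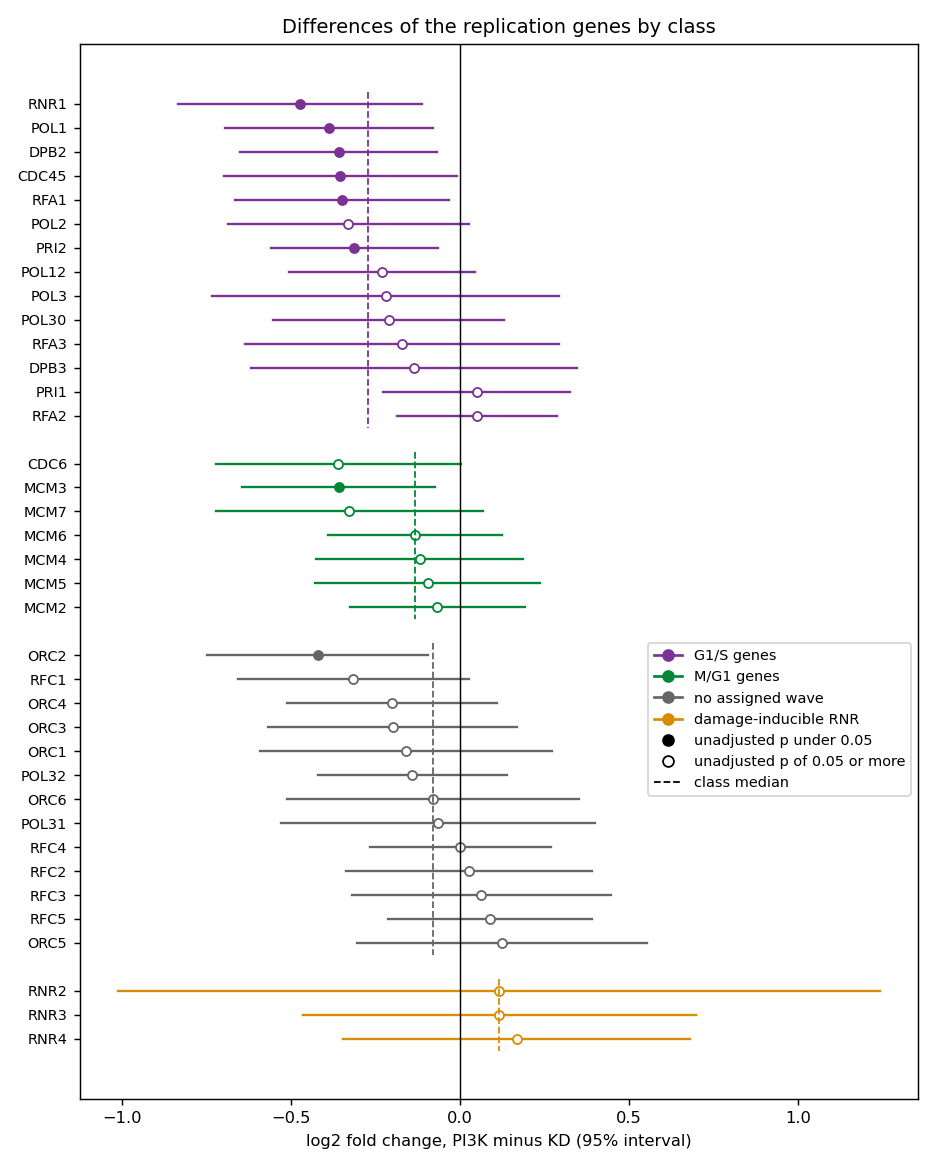
Difference of each gene, PI3K minus KD, on the log2 scale (x axis, point) with its unadjusted 95% interval (line), grouped and coloured by class. Filled points have an unadjusted p under 0.05, 8 in all, and the dashed lines are class medians, at -0.27 for G1/S genes and -0.08 for genes with no assigned wave.

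The G1/S genes also varied together between arrays of one group. With group means removed, the median Pearson correlation over the 91 pairs of G1/S genes was 0.48, where the median over all pairs of genes tested was 0.03 and that over the 78 pairs of genes with no assigned wave -0.11. These correlations are descriptions over 6 arrays that share the sides. KD 3 was the lowest KD array for 11 of the 14 genes and PI3K 2 the highest PI3K array for 10. RNR1 ran the other way: its residuals correlated negatively with those of all 13 other G1/S genes, with a median of -0.82, and it was highest on KD 3 and lowest on PI3K 2. RNR1 therefore shared the sign of the group difference with most G1/S genes but had the opposite pattern over the arrays within a group. PRI1 had a median correlation of 0.01 with the other G1/S genes.

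**Figure D4:**
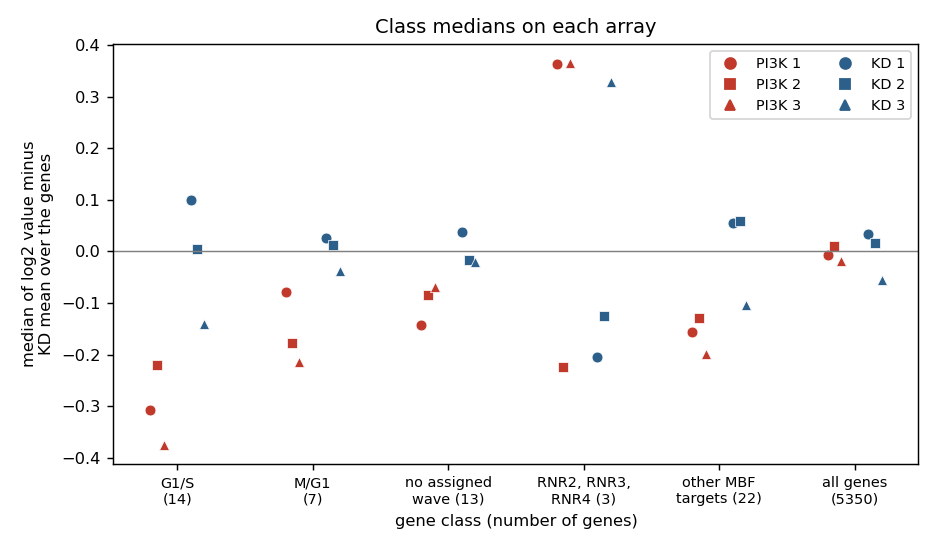
Median over the genes of a class of the log2 value minus its KD mean (y axis) on each PI3K (red) and KD (blue) array, with the replicate given by shape. The PI3K arrays lie below the KD arrays for G1/S genes, M/G1 genes, genes with no assigned wave and other MBF targets, and overlap them for RNR2, RNR3 and RNR4.

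Of 26 replication factors outside the 37 genes, 0 passed over all genes, 20 were lower, and the median difference was -0.12. The median was 0.00384 in side A and -0.09 in side B. At an unadjusted p under 0.05 there was 1, or 3.85%, which is below the 14.5% of all genes in either direction. It was SLD3, which recruits Cdc45 to origins, with log2 values of 6.60, 6.58 and 6.55 in PI3K and 6.81, 6.83 and 7.12 in KD (difference -0.35, adjusted p = 0.270). DPB11, a partner of Sld3 in origin firing, was at -0.37. SLD5, a subunit of the GINS complex, and DCC1, of an alternative clamp loader, had the smallest p among those with positive differences, at 0.26 and 0.18.

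MBF targets outside the replication set were lower in 19 of 22 cases, with a median of -0.18, and 0 passed over all genes. The smallest p-values belonged to the cohesin genes IRR1 (-0.45, adjusted p = 0.184) and SMC1 (-0.33, adjusted p = 0.299), and 2 of the 22, or 9.09%, had an unadjusted p under 0.05, both lower, a share near the 6.58% of all genes that were lower at that p. CLB5 (-0.22) and CLB6 (-0.14), the cyclins that start S phase, overlapped between groups. CDC21, thymidylate synthase, and ASF1, a histone chaperone, had positive differences of 0.21 and 0.20, as did DUN1, a checkpoint kinase gene named after its value was seen, at 0.04. This list's median was 0.00196 in side A and -0.16 in side B, so its lean lay in side B.

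Among the regulators of the G1/S wave, SWI6, a subunit shared by MBF and its relative SBF, had log2 values of 8.79, 9.08 and 8.71 in PI3K and 9.37, 9.28 and 9.18 in KD. All PI3K arrays were below KD (difference -0.41, SE 0.14, adjusted p = 0.247). MBP1, the DNA-binding subunit of MBF, was at -0.19, SWI4, that of SBF, at -0.35 and NRM1, the corepressor that ends the MBF wave, at -0.33, each with overlapping groups. MCM1, a factor of the M/G1 wave, stood at 0.34 and BCK2 at 0.07, the positive differences with the smallest p. Of the 13 regulators 9 were lower and 0 passed, and their median was -0.39 in side A and 0.00175 in side B.

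Genes of nucleotide supply and of the control of ribonucleotide reductase did not share the lean, with a median of -0.01 over 13 genes, 8 of them lower and 0 passing. DFR1, dihydrofolate reductase (-0.31), and DIF1, a factor for nuclear import of the small subunit (-0.22), came first by p among the lower genes. CDC21 (0.21) and WTM1, a nuclear anchor of the small subunit (0.27), came first among the higher ones. SML1, the protein inhibitor of the reductase, was at -0.06, and the repressor gene RFX1 at -0.12. HUG1, a strongly damage-induced inhibitor of the reductase, had values of 6.36, 6.88 and 6.77 in PI3K and 7.14, 6.51 and 6.38 in KD, with no order by group (difference -0.00, SE 0.23). Of 7 genes induced by DNA damage 0 passed, and their median was -0.000463. Those with the smallest p were DIN7 (-0.28) and PLM2 (-0.16) among the lower and RAD2 (0.30) and PHR1 (0.26) among the higher.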

How the data were processed

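Total RNA of 6 cultures was hybridised to 1-colour Affymetrix arrays, per the labels' protocols. The deposited values are taken as log2 and were made with GCRMA, per the submitters' processing notes; the log base and version are not given in the sources used here. Probe sets were named through the platform annotation and the R64 gene table: 5498 of 5716 had 1 gene, 0 had several and 218 none. Tested probe sets reached a log2 value of 4 on at least 3 of 6 arrays, and the highest-mean probe set stood for a gene. The test of PI3K over KD was that of limma 3.58.1 (R 4.3.3; lmFit and eBayes, two-sided, 4 residual and 2.97 prior degrees of freedom), with Benjamini-Hochberg adjustment over 5350 genes and a threshold of 0.05. Pearson correlations between arrays ranged from 0.965 to 0.994, and precision is limited by the number of arrays. The genes, classes, lists and settings were chosen with earlier results of these data known. Values on each array were given for those with an unadjusted p under 0.05, the smallest p in each complex and 7 genes fixed by name, and from other lists the 2 smallest p-values each way and 9 genes fixed by name. The other settings for the count at an unadjusted p were added after the data were seen. On simulated data of 5350 genes for PI3K against KD, 69% of changes with a log2 size of 1 were recovered, 95% of those with a size of 2, and 6 unchanged genes were called. The simulated noise was independent between genes, without the component that the real arrays share. Sizes as small as those of the replication genes were not simulated, so these rates do not apply to them. Figures used matplotlib 3.10.9.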

Additional observations from a re-analysis of the deposited data

How the results depend on the processing

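Each of the 8 genes lower at an unadjusted p under 0.05 kept a negative difference in all 15 other fits, as did 23 of the 37 genes; 12 changed sign in at least 1. No replication gene passed over all genes in 13 of the 15 fits, leave-one-out fits included, whose counts were 0 to 0. With the array side as a covariate 1 passed (RNR1; 185 of all genes). Array weights called 27 (21 lower, 6 higher) and 2808 of all genes, or 52.5%; the weights were 5.02 for PI3K 1 and 5.75 for KD 2 against 0.154 to 0.968 for the others, and their estimate stopped before it converged. The count at an unadjusted p was then 22, the median of the 37 genes -0.29 and that of RNR2, RNR3 and RNR4 0.46. Leaving out each array gave 0 to 6 genes called in all, against 13 (0 without KD 2, with 476 genes then at an unadjusted p under 0.05), and 2 to 15 replication genes at an unadjusted p. The median of the 37 genes then ran from -0.28 (without KD 3) to -0.11, and that of genes with no assigned wave from -0.12 to -0.052. For genes with no assigned wave it was -0.12 with quantile normalization and -0.14 with the other class assignment. The median of RNR2, RNR3 and RNR4 was -0.01 with the side as a covariate. The cause of these shifts was not tested.

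The replicate block called 40 genes and 0 replication genes. The numbers were not taken to pair the samples: residuals of same-numbered arrays correlated at -0.486, 0.475 and 0.39, and 2 of 6 arrays correlated best with their own number. A split by a motif in the promoters was not run. The median half-width of the unadjusted 95% interval was 0.34 over the 37 genes, with a range of 0.24 to 1.13. The interval of a typical gene could therefore not resolve a smaller log2 difference. After adjustment no replication gene was resolved in the main fit, RNR1 at -0.47 included.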

Other observations

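Other genes timed by the cell cycle had these values. The 7 core histone genes measured, which are transcribed in S phase, all had negative differences, with a median of -0.15 and 0 passing; HTB2 (-0.28) and HHT1 (-0.24) had the smallest p. Among M/G1 genes outside the replication set, EGT2, a cell separation gene, had log2 values of 11.60, 11.63 and 11.56 in PI3K and 12.08, 11.96 and 12.12 in KD (difference -0.45, adjusted p = 0.157). FAR1, a cyclin-dependent kinase inhibitor used in mating, stood at -0.25. SIC1, the inhibitor that is destroyed before S phase starts, went the other way, at 10.02, 10.08 and 9.99 in PI3K and 9.76, 9.80 and 9.87 in KD (difference 0.22, adjusted p = 0.384). PCL9 was at 0.08.

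SBF targets were mixed in sign between the groups, with 5 of 9 lower and a median of -0.11. The median was negative inside both sides, at -0.36 in side A and -0.07 in side B. GIC2, an effector of Cdc42, was higher on every PI3K array (0.45, adjusted p = 0.209), and PCL1, a cyclin, was at 0.32 with overlap. SWE1, a mitotic inhibitor kinase (-0.28), and CLN1, a G1 cyclin (-0.24), were lower on every PI3K array. Of the 10 G2/M genes 9 were lower, with a median of -0.25, with HOF1 (-0.43) and CLB1 (-0.40) first by p, and MOB1 stood alone on the positive side at 0.46. Of all these lists 0 genes passed over all genes in limma, and 6 of the 10 G2/M genes were lower and apart, against 10.5% of all genes.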
